A study of Ceratotherium simum simum with 6 samples.

Results

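Single-exon unannotated loci are places where reads were assembled into an unspliced transcript that carries no gene name. They were taken from the deposited position table as gene identifiers with no name on any transcript, with 1 exon in each transcript, and with no exonic base in common with a named gene on either strand. Of 40656 assembled genes, 18087 had no name, 1497 of those had only single-exon transcripts, and 1124 of those shared no exonic base with a named gene. Leaving out the mitochondrial scaffold and scaffold Y_244 gave 1120 loci, which are 2.75% of the assembled genes. Of the 1120, 603 were modelled on the plus strand, 516 on the minus strand and 1 on neither. No pair of them overlapped, so each locus stands for 1 model. Of the 1120, 108 overlapped an unnamed gene outside this set, and their own counts were kept apart from that gene's. No sequence of the loci was read, since no genome of this build was used here.

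The RNA came from granulosa cells of 2 southern white rhinoceroses. Both are labelled wild type, in vivo and "Pre IVM", and the labels give no age. The groups were rhino 2 and rhino 1, with 3 libraries each, so each group is 1 animal. The labels do not say whether the 3 libraries came from separate collections, so p-values measure the spread between libraries, which may be technical.

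An unspliced, unnamed model can hold many kinds of RNA. Long non-coding RNAs, 3′ ends that run past the annotated end of a gene, unspliced precursor RNA inside introns, RNA from repeats, and reads from genomic DNA all assemble into 1 exon. Granulosa cells line the ovarian follicle, make oestradiol and secrete inhibins and activins. A stranded library also records which DNA strand each RNA was copied from, and a model on the wrong strand then stands for the RNA of the opposite strand.

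The libraries held between 703708 and 1523904 counts in rhino 2, and between 672410 and 13288936 in rhino 1. Levels are in CPM, the reads of a locus after each library was scaled to 1e+06 counts, and 1 count is worth from 0.0753 CPM in rhino 1 replicate 1 to 1.49 CPM in rhino 1 replicate 2. All 11 granulosa markers had counts in every library, and their summed level was 12706 to 18528 CPM in rhino 2 and 17717 to 28700 CPM in rhino 1. Single granulosa markers went different ways. AMH had 292 to 433 CPM in rhino 2 and 78.4 to 90.7 CPM in rhino 1. CYP19A1 had 180 to 260 CPM in rhino 2 and 892 to 3418 CPM in rhino 1. INHBB, INHBA and NR5A1 were also higher in every rhino 1 library, and the ranges of the rest overlapped. Of 12 oocyte markers matched, 10 were at 0 in every library, and of the 3 theca markers CYP17A1 and INSL3 were at 0 throughout. The third, LHCGR, the receptor for luteinizing hormone, had 22.3, 21.3 and 38.0 CPM in rhino 2, against 180, 56.5 and 161 CPM in rhino 1. The leukocyte list, with 5 of 6 markers matched, summed to at most 26.9 CPM in rhino 2 and 71.2 CPM in rhino 1. Endothelial markers summed to 169 to 257 CPM in rhino 2 and 57.3 to 105 CPM in rhino 1, with CDH5 and KDR at 0. TEK alone had 165 to 257 CPM in rhino 2 and 57.3 to 99.6 CPM in rhino 1, and PECAM1 and VWF had at most 3.94 CPM in any library. Haemoglobin beta was at 387 to 809 CPM in rhino 2 and 1963 to 4335 CPM in rhino 1, with the other red cell markers, HBA and ALAS2, at 0. The smooth muscle list, with 3 of 4 markers matched, summed to 581 to 927 CPM in rhino 2 and 374 to 2552 CPM in rhino 1. Its members went different ways. MYH11 had 526 to 900 CPM in rhino 2 and 112 to 258 CPM in rhino 1. ACTA2 had 0 to 41.2 CPM in rhino 2 and 39.6 to 2292 CPM in rhino 1, highest in replicate 2. CNN1 had 14.2 to 24.1 CPM in rhino 2 and 76.9 to 149 CPM in rhino 1. The part of these differences in the results on the loci was not tested. In bulk RNA, fewer cells of a type and less RNA per cell cannot be told apart.

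The first feature of the loci was that rhino 1 replicate 1 and the other 5 libraries read different ones. A locus was placed by whether its level in rhino 1 replicate 1 differed by at least 10-fold from the mean of the other 5, a division chosen after the values were seen. By that division, 567 loci (50.6%) were read in the other 5 libraries, 445 (39.7%) were read in rhino 1 replicate 1, 55 (4.91%) lay within 10-fold and 53 (4.73%) had no counts. These names rest on the mean, which 1 library can carry. A scaffold 36 locus placed with the other 5 had 958 CPM in rhino 2 replicate 1. It had at most 5.68 CPM in the rest of the 5 and 18.8 CPM in rhino 1 replicate 1. Over all classes, 276 loci reached 1 CPM in each of the 5. The lowest of the 445 had 0.0753 CPM in rhino 1 replicate 1, a level below 1 count in every other library. Among the 408 loci with at least 10 CPM on the higher side, 208 (51.0%) were read in the other 5 libraries, 190 (46.6%) in rhino 1 replicate 1, and only 10 (2.45%) lay within 10-fold.

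Spliced unnamed loci and named loci were counted with their opposite-strand models added, which by construction removes an exchange between strands wherever both have a model, so they give no like-for-like comparison. With no minimum level, 27.8% of 1639 spliced unnamed loci lay within 10-fold, 44.7% were read in rhino 1 replicate 1 and 11.7% in the other 5 libraries. With at least 10 CPM, 70.5% of 386 spliced unnamed loci and 88.9% of 8901 named loci lay within 10-fold. The loci read in rhino 1 replicate 1 held 98.4% of all the single-exon counts there and 0.201% to 0.458% in the other 5 libraries. The loci read in the other 5 held 96.3% to 98.6% of the single-exon counts in those libraries and 0.522% in rhino 1 replicate 1. The low shares on the other side follow from the division, which was made on these same levels, and are no separate result. Named genes and the unnamed models opposite them, which that division did not sort, also exchanged counts between these libraries. The models of named genes, with or without an opposite model, held 94.5% of all counts in rhino 1 replicate 1. They held 2.31% to 2.61% in the other 5 libraries. The unnamed models joined to named genes on the opposite strand held 0.696% of all counts in rhino 1 replicate 1. Those unnamed models held 86.1% to 90.2% in the other 5. The counted strand was thus mainly that of the named model in rhino 1 replicate 1 and mainly the opposite one in the other 5. For a locus with 1 model on 1 strand, a level at or near 0 in one of these sets of libraries does not say that the RNA was missing. Of the 108 loci overlapping an unnamed gene outside the set, 84 were read in rhino 1 replicate 1, 21 in the other 5 libraries, and 3 lay within 10-fold.

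**Figure D1:**
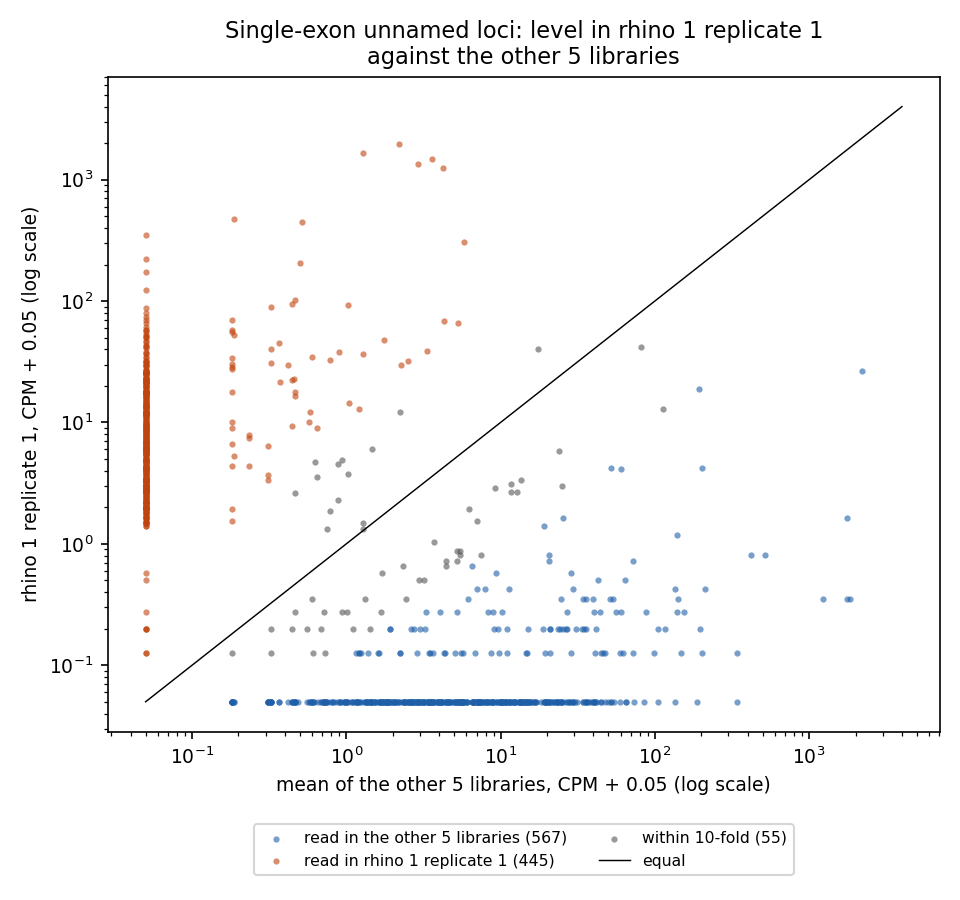
Level of each single-exon locus with counts in rhino 1 replicate 1 (vertical axis) against the mean of the other 5 libraries (horizontal axis), both as CPM + 0.05 on a log scale. The points lie in 2 arms, 445 loci read in rhino 1 replicate 1 and 567 in the other 5 libraries, with 55 within 10-fold near the line of equal level.

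Most of the loci lay next to named genes. The nearest named gene had the locus past its 3′ end, that is downstream, in 725 cases (64.7%), before its 5′ end in 236 (21.1%) and in an intron in 156 (13.9%), and 3 loci had no named gene on their scaffold. Of all 1120, 301 (26.9%) lay within 1 kb outside a named gene, 292 (26.1%) at 1 to 5 kb, 231 (20.6%) at 5 to 50 kb and 137 (12.2%) farther. The 961 loci outside a named gene were 11 to 976525 bases from it, with a median of 2352. The spliced unnamed genes lay farther away, with a median of 11558.5 bases for 2022 genes outside a named gene.

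The side differed as well. Within 5 kb, 528 single-exon loci (47.1%) lay downstream and 65 (5.80%) upstream of the nearest named gene. Among the 2269 spliced unnamed genes, 311 (13.7%) lay downstream and 425 (18.7%) upstream within 5 kb. These are positions in 1 assembly and not replicated measurements, so no test was made. The loci were 200 to 9435 bases long, with a median of 534.5 and quartiles of 297.75 and 1281.5. They stood on 70 scaffolds, with 29 on scaffold X and 86 on the pieces of scaffold Y.

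Orientation followed the libraries. Within 5 kb downstream, 186 of the 198 loci read in rhino 1 replicate 1 (93.9%) had the strand of the neighbouring gene. Of the 305 read in the other 5 libraries, 276 (90.5%) had the strand opposite to it. Since named genes put their counts on the opposite model in those 5 libraries, both groups of loci mostly had their counts on the strand that also held the neighbouring genes' counts in the same libraries. Inside introns the pattern was the same but less complete, with the gene's strand in 41 of 56 loci (73.2%) read in rhino 1 replicate 1, and the opposite strand in 57 of 68 (83.8%) read in the other 5.

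Away from 3′ ends the strands were nearer to even. Up to 5 kb upstream, 9 of 20 loci read in rhino 1 replicate 1 had the strand of the gene, and 19 of 35 read in the other 5 had the opposite strand. Over 5 kb from a named gene, those counts were 88 of 168 and 96 of 159.

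**Figure D2:**
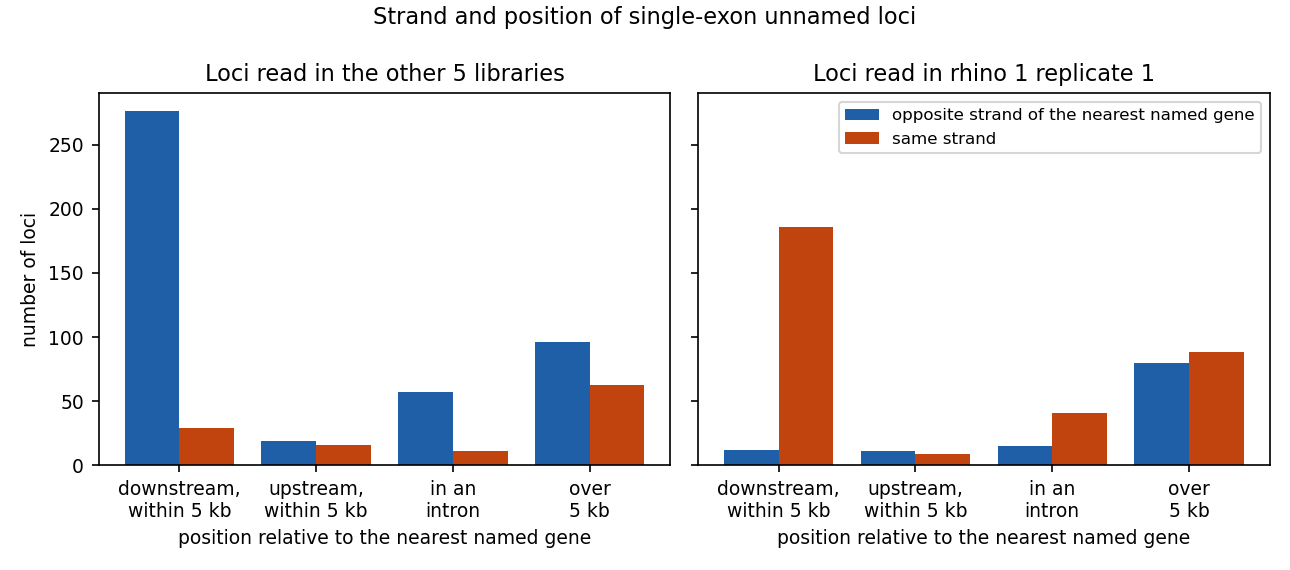
Number of single-exon loci on the strand of the nearest named gene and on the opposite strand, by position and by the libraries that read them. Downstream within 5 kb, 186 of 198 loci read in rhino 1 replicate 1 had the gene's strand, and 276 of 305 read in the other 5 libraries had the opposite one.

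A neighbour that was itself read lay beside most of the downstream loci. For the 305 within 5 kb downstream that were read in the other 5 libraries, the locus had a median of 6.82 CPM and its neighbouring locus a median of 8.35 CPM in those libraries, and 53 neighbours were at 0. For the 198 read in rhino 1 replicate 1, the medians were 11.8 CPM at the locus and 17.8 CPM at the neighbour in that library, and 9 neighbours were at 0. CPM values are not per length, so they do not rank a locus against its neighbour.

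An example beside a granulosa gene lay on scaffold 1 at 97931131 to 97934049, 1414 bases downstream of INHBA, which encodes the beta A subunit of activin A and inhibin A. This locus of 2919 bases, named after its values were seen, is modelled on the strand opposite to INHBA. In the order of replicates 1, 2 and 3, used for all values below, it had 196, 225 and 113 CPM in rhino 2, against 0.376, 213 and 316 CPM in rhino 1. INHBA itself had 179, 213 and 165 CPM in rhino 2, against 803, 373 and 562 CPM in rhino 1. The locus thus had at least 113 CPM in each of the 5 libraries, and was near 0 in rhino 1 replicate 1, where INHBA was highest. Another locus, of 5202 bases on scaffold 35 at 11329687 to 11334888 and 231 bases downstream of MLEC, a lectin of the endoplasmic reticulum, showed the reverse. It had 0 counts in all 3 rhino 2 libraries, against 353, 0 and 0 CPM in rhino 1, and MLEC had 33.5, 48.3 and 26.0 CPM in rhino 2, against 67.4, 0 and 22.8 CPM in rhino 1.

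Together the 1120 loci took a small share of the counts. The share was 1.86%, 2.33% and 2.02% in rhino 2, with 95% Wilson intervals of 1.84% to 1.88%, 2.29% to 2.37% and 1.99% to 2.04%. It was 1.63%, 2.26% and 1.33% in rhino 1, with intervals of 1.62% to 1.63%, 2.22% to 2.29% and 1.31% to 1.35%. The means were 2.07% ± 0.239 in rhino 2 and 1.74% ± 0.475 in rhino 1 (SD, n = 3 each), and the difference of 0.332 percentage points had p = 0.4 in an exact two-sided permutation test, whose smallest possible p is 0.1. Intervals cover counting error only. In rhino 1 replicate 1, 98.4% of these counts were at the 445 loci read in that library. Its share thus covers mainly other loci than the shares of the rest, and it enters the rhino 1 mean and the test. Spliced unnamed loci took 2.61% to 3.24% of the counts in the 6 libraries.

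A few loci made up much of that share, since the 10 highest in a library held 42.9% to 64.7% of its single-exon counts. Loci with any count numbered 589, 448 and 524 in rhino 2, against 614, 400 and 559 in rhino 1.

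The 12 loci with the highest mean of the animals' mean CPM comprised 9 read in the other 5 libraries and 3 read in rhino 1 replicate 1. The highest lay on scaffold 28 at 40161154 to 40162638, 1485 bases on the plus strand and 4587 bases upstream of SG196, a protein O-mannose kinase. It had 1867, 1698 and 1769 CPM in rhino 2, against 26.5, 3740 and 1872 CPM in rhino 1. Rhino 1 replicate 2 was the highest and replicate 1 of the same animal the lowest, so the animals overlapped.

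A locus on scaffold 25 at 47562886 to 47563366, 75541 bases downstream of ACRO (acrosin, a protease of the sperm acrosome), had 1030, 3297 and 1958 CPM in rhino 2, against 0.301, 2362 and 564 CPM in rhino 1. The locus at 27714204 to 27714856 on scaffold 37, 2163 bases downstream of MDFIC, had 1224, 3271 and 1921 CPM in rhino 2, against 1.58, 1843 and 564 CPM in rhino 1. Its neighbour at 27718227 to 27718898 had 1043, 3011 and 2060 CPM in rhino 2, against 0.301, 2026 and 604 CPM in rhino 1. Both scaffold 37 loci and the scaffold 25 locus were highest in rhino 2 replicate 2 and, of the 5 libraries, lowest in rhino 1 replicate 3. A locus of 290 bases on scaffold 27 at 42713890 to 42714179, 2650 bases downstream of GNDS, a guanine nucleotide exchange factor for Ral, showed that order as well. It had 711, 1944 and 1485 CPM in rhino 2, against 0.301, 1617 and 419 CPM in rhino 1.

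Per length, this short locus was the highest of the 5 libraries' loci, with a mean of 4258 CPM per kb over those libraries. The scaffold 25 locus followed with 3830 CPM per kb, and the scaffold 37 pair had 2702 and 2603 CPM per kb. The scaffold 28 locus had 1474 CPM per kb. The ranges of these 5 loci over the 5 libraries overlapped on the CPM scale, so the order by mean describes these libraries only.

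The longest of the 12 covered 5033 bases on scaffold 22 at 27320843 to 27325875, 13777 bases downstream of CNBD2, and varied less among the 5 libraries. It had 565, 529 and 624 CPM in rhino 2, against 0.753, 369 and 495 CPM in rhino 1. On scaffold 29 at 31276560 to 31277629, a locus on the minus strand had 303, 269 and 313 CPM in rhino 2, against 0.753, 869 and 345 CPM in rhino 1. A locus on scaffold 15 at 309799 to 310489, 19014 bases from TRI59, had 323, 388 and 460 CPM in rhino 2, against 0, 226 and 306 CPM in rhino 1. In each of these 3 loci rhino 1 replicate 1 was lowest.

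The 3 highest loci read in rhino 1 replicate 1 had at most 7.11 CPM in any other library. The locus on scaffold 11 at 49086972 to 49087496, 45377 bases from MEMO1, had 1.31, 4.26 and 3.71 CPM in rhino 2, against 1959, 0 and 1.38 CPM in rhino 1. On the plus strand of scaffold 29, at 31273632 to 31274070, the levels were 0.656, 0 and 1.85 CPM in rhino 2, against 1673, 2.97 and 0.690 CPM in rhino 1. A locus on scaffold 36 at 31056297 to 31057280, 54677 bases from OOEP, a gene of the oocyte's subcortical complex, had 0.656, 7.11 and 2.78 CPM in rhino 2, against 1486, 2.97 and 4.14 CPM in rhino 1. Per length, the scaffold 29 and scaffold 11 loci were the highest in rhino 1 replicate 1, with 3810 and 3731 CPM per kb. Since this library reads the opposite strand from the others, these levels cannot be set beside those of rhino 2.

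Detection in an animal was taken as at least 1 CPM in all 3 of its libraries. Of the 1120 loci, 364 met this in rhino 2 and 21 in rhino 1. The animals shared 16 of the 1120 (1.43%), and 348 were detected in rhino 2 alone and 5 in rhino 1 alone. Of 22569 named loci 24.5% were shared, 1197 were of rhino 2 alone and 631 of rhino 1 alone. Of 1639 spliced unnamed loci 10.6% were shared, 100 were of rhino 2 alone and 32 of rhino 1 alone. Those loci were counted with their opposite-strand models added. The gap at the single-exon loci moved with rhino 1 replicate 1. Without that library, 364 loci met it in rhino 2 and 345 in rhino 1, of which 276 were shared, 88 were of rhino 2 alone and 69 of rhino 1 alone. The shared 276 were 24.6% of the loci, against 24.8% of named loci and 12.1% of spliced unnamed loci. Named loci of rhino 2 alone then numbered 1132 and those of rhino 1 alone 669. For rhino 1 this setting used replicates 2 and 3 only, so it asked for fewer libraries there than in rhino 2. Of the 16 detected in both over all 6 libraries, 6 were read in the other 5 libraries, 4 in rhino 1 replicate 1, and 6 lay within 10-fold. One CPM is less than 1 count in rhino 2 replicate 2, where 1 count is worth 1.42 CPM, and in rhino 1 replicate 2, so detection in these libraries needed only 1 count.

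The 276 loci detected in all 5 libraries had a median of 17.6 CPM, with a range of 1.68 to 2189, and a median of 14.4 CPM per kb, with a range of 0.748 to 4258. The highest of the 5 libraries was a median of 3.22 times the lowest. By position, 25 of 156 intron loci, 81 of 301 within 1 kb, 92 of 292 at 1 to 5 kb, 50 of 231 at 5 to 50 kb and 28 of 137 farther away were detected in all 5. Their median levels were 19.2, 11.99, 10.7, 21.5 and 59.8 CPM per kb in that order, so the few loci farthest from named genes had the highest median.

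Of the 16 loci detected in both animals, those nearest to and farthest from a named gene had no common pattern. At 109 bases downstream of AA2BR, the adenosine A2b receptor, the locus on scaffold 16 at 2948697 to 2949283 had 11.8, 7.11 and 6.49 CPM in rhino 2, against 2.93, 92.2 and 6.90 CPM in rhino 1. At 550370 bases from SLIK1, the locus on scaffold 10 at 26609694 to 26610319 had 196, 183 and 189 CPM in rhino 2, against 4.14, 247 and 198 CPM in rhino 1. Apart from rhino 1 replicate 1, the libraries of that distant locus ranged only from 183 to 247 CPM. A locus beside it, at 26610933 to 26611230, had 2.62, 5.68 and 1.85 CPM in rhino 2, against 306, 16.4 and 2.07 CPM in rhino 1. Also among the 3 farthest, the locus on scaffold 29 at 31041896 to 31042798 and 181520 bases from KIF17, a kinesin motor, had 97.1, 7.11 and 12.98 CPM in rhino 2, against 1.58, 2.97 and 6.90 CPM in rhino 1.

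The longest of these 16 loci were read mainly in rhino 1 replicate 1. A locus of 6391 bases on scaffold 22 at 3865443 to 3871833, 1348 bases upstream of XRN2, a nuclear exoribonuclease, had 3.28, 2.84 and 6.49 CPM in rhino 2, against 65.9, 4.46 and 8.97 CPM in rhino 1. Inside a gene that is also named XRN2, on scaffold Y_7 at 624686 to 630362, the levels were 2.62, 2.84 and 3.71 CPM in rhino 2, against 68.3, 4.46 and 7.59 CPM in rhino 1. Beside that, at 630712 to 632430, they were 1.31, 1.42 and 5.56 CPM in rhino 2, against 38.6, 5.95 and 2.07 CPM in rhino 1. The sequences of the places that share this gene name were not compared, so how reads were divided between them is uncertain. Among intron loci, one in PIMT on scaffold 38 at 96132 to 96357 had 101, 4.26 and 6.49 CPM in rhino 2, against 5.72, 5.95 and 1.38 CPM in rhino 1.

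The animals were compared at every locus in 1 edgeR quasi-likelihood fit, rhino 2 over rhino 1, with Benjamini-Hochberg adjustment over all loci tested and a threshold of 0.05. Of 1120 single-exon loci, 222 passed the filter on low counts: 218 read in the other 5 libraries, 4 within 10-fold, and none of the 445 read in rhino 1 replicate 1. None of the 222 was called, against 0.551% of all 8532 loci tested. Of the 222, 6 had an unadjusted p under 0.05 by this test, against 1101 of the 8532. DESeq2 called 4 of the 222, against 7.27% of all loci, and limma-voom called 115, all higher in rhino 2, against 9.02%. With no filter on low counts edgeR called 19 of 1067 loci, 6 higher and 13 lower in rhino 2, against 2.27% of all loci, and with a filter of 5 CPM in either animal it called none, against 0.281%. Leaving out rhino 1 replicate 2 or rhino 2 replicate 1, 2 or 3 also gave no call, against 0.0426%, 0.0115%, 0.0106% and 0.0107% of all loci. The median log2 fold change was 0.87 over the 222 and 0.04 over all loci tested, and at 218 of the 222 rhino 1 replicate 1 was at least 10-fold below the mean of the other libraries.

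In a fit without rhino 1 replicate 1, added after its strand was seen, 244 single-exon loci were tested. One locus was called higher in rhino 2 and none lower by edgeR's quasi-likelihood test with Benjamini-Hochberg adjustment, against 0.571% of all 8574 loci tested. Of the 244, 24 had an unadjusted p under 0.05 by this test, against 1226 of the 8574. The median log2 fold change of the 244 was 0.27, against 0.10 over all loci. DESeq2 called 18 of the 244 on these 5 libraries, 12 higher and 6 lower in rhino 2, against 10.8% of all loci. Limma-voom called 7, against 4.25%. Leaving out rhino 1 replicate 3 as well gave 16 calls, against 10.2% of all loci. Leaving out rhino 1 replicate 2 instead gave 0, against 0.0424%, and leaving out any rhino 2 library gave 0 too.

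The called locus lay on the minus strand of scaffold 27 at 3404905 to 3406542 and covered 1638 bases. It had 763, 450 and 439 CPM in rhino 2, with a mean of 551 ± 184 (SD, n = 3). In rhino 1 it had 0.0753, 44.6 and 15.2 CPM, with a mean of 19.96 ± 22.7 (SD, n = 3). Every rhino 2 library stood above rhino 1 replicates 2 and 3. Rhino 1 replicate 1 mainly reads the opposite strand, so its 0.0753 CPM does not say that the RNA was missing. That value enters the rhino 1 mean and SD. The log2 fold change was 4.44 (SE 0.53) over the 5 libraries, with an adjusted p of 0.0361 by edgeR's quasi-likelihood test. Over all 6 libraries it was 5.19 (SE 1.51), with an adjusted p of 0.192 by the same test. On those 6 libraries the adjusted p was 0.00322 by edgeR with no filter on low counts, 0.00318 by DESeq2 and 0.00250 by limma-voom, and 0.468 by edgeR with a replicate block. With a further library left out of the 5, the adjusted p was between 0.0149 and 0.199.

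This locus lay beside a pair of genes modelled on opposite strands. It was 255 bases from a gene of 14 exons named MAST1, on the minus strand at 3394424 to 3404650, and 267 bases downstream of SIK1, on the plus strand at 3394682 to 3404638. SIK1 is a salt-inducible kinase of cAMP signalling, and MAST1 is a microtubule-associated kinase. The gene named MAST1 shared 2636 exonic bases, or 83.8% of its 3146, with SIK1, and another gene named MAST1, with 26 exons, stood on scaffold 40. The minus-strand model had 843, 401 and 434 CPM in rhino 2, against 0, 0 and 13.1 CPM in rhino 1, and the SIK1 model had 0 counts in rhino 2 and 26.0, 0 and 0 CPM in rhino 1. The counts of the locus and of the minus-strand model were thus high in the same 3 libraries. SIK1 had 345 counts in rhino 1 replicate 1, where the minus-strand model had 0, and 0 counts in the other 5 libraries. The counts thus changed strand between these libraries, as did those of named genes and the unnamed models opposite them.

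Other loci came close to the threshold. The smallest adjusted p over all 6 libraries, 0.0516 by edgeR's quasi-likelihood test, was at a locus of 1075 bases on scaffold 5 at 11239614 to 11240688, named after its values were seen. It had 99.1, 121 and 108 CPM in rhino 2, against 42.1, 35.7 and 40.7 CPM in rhino 1, with means of 109 ± 10.9 in rhino 2 and 39.5 ± 3.39 in rhino 1 (SD, n = 3 each). Rhino 1 replicate 1 was not apart from its group here in level. That library mainly reads the opposite strand, so its value may not count the same RNA, and it enters the rhino 1 mean and SD. The log2 fold change was 1.55 (SE 0.25) over all 6 libraries. Without rhino 1 replicate 1 it was 1.62 (SE 0.27), with an adjusted p of 0.0625 by edgeR's quasi-likelihood test. On genes as deposited, without the joining of opposite strands, the log2 fold change turned to -3.11. The counts of this locus were the same in that fit. What differed was the set of other models behind the library scaling and the estimate of spread. DESeq2 gave this locus an adjusted p of 3.66e-06 over all 6 libraries. A locus next to it, at 11238546 to 11239326, had 72.2, 115 and 82.5 CPM in rhino 2, against 0.452, 20.8 and 27.6 CPM in rhino 1. Its log2 fold change over the 5 libraries was 1.98, with an adjusted p of 0.0780 by the same test.

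Inside PO210, a nuclear pore membrane protein, the intron locus on scaffold 5 at 3315340 to 3315601 had 78.7, 63.9 and 131 CPM in rhino 2, against 4.06, 2.97 and 23.5 CPM in rhino 1. Its log2 fold change was 3.25 (SE 0.83), with an adjusted p of 0.145 by edgeR's quasi-likelihood test over all 6 libraries. Its adjusted p was 0.0100 by edgeR with no filter on low counts, 0.00457 by DESeq2 and 0.00250 by limma-voom, all on the same 6 libraries. Without rhino 1 replicate 1, which mainly reads the opposite strand, the log2 fold change was 2.75 (SE 0.77). The adjusted p was then 0.176 by edgeR's quasi-likelihood test, so the locus was not called. On genes as deposited its sign turned over the 6 libraries (log2 fold change -0.057), again with the same counts at the locus.

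Some loci near the threshold had the higher level in rhino 1. Over the 5 libraries edgeR's quasi-likelihood test called none lower in rhino 2, while DESeq2 called 6 and limma-voom 3. In both directions together, DESeq2 called 7.38% of the single-exon loci tested, against 10.8% of all loci. For limma-voom these shares were 2.87% and 4.25%. In an intron of CAV1, a caveolin, the locus on scaffold 1 at 36262740 to 36263496 had 0.656, 0 and 0 CPM in rhino 2, against 0, 115 and 10.3 CPM in rhino 1. In an intron of VP13B, the locus on scaffold 23 at 11321641 to 11322207 had 38.7, 38.4 and 44.5 CPM in rhino 2, against 0.226, 220 and 96.6 CPM in rhino 1. Their adjusted p values over the 5 libraries were 0.0985 and 0.0878 by edgeR's quasi-likelihood test. Both were named after their values were seen.

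**Figure D3:**
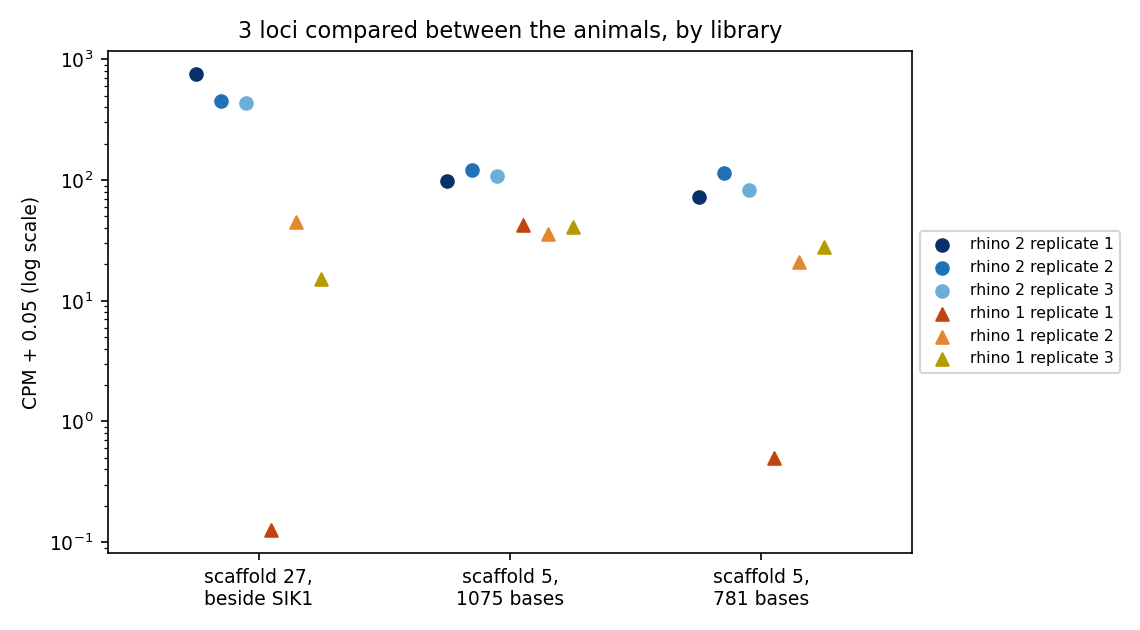
CPM in each library, on a log scale, of 3 single-exon loci compared between the animals, with rhino 2 left of rhino 1. The scaffold 27 locus had 439 to 763 CPM in rhino 2 and 0.0753 to 44.6 CPM in rhino 1. Its lowest value is that of rhino 1 replicate 1, which mainly reads the opposite strand.

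Some loci were read in 1 library alone among the 5. With at least 10 CPM in a library and at least 10 times the level of each of the other 4, there were 8 such loci in rhino 2 replicate 1 (3.92% of the 204 with at least 10 CPM there), 6 in rhino 1 replicate 2, 1 in rhino 2 replicate 3 and none in the rest. In rhino 2 replicate 1, 0.804% of 7460 named loci and 2.75% of 291 spliced unnamed loci met the same condition. The 8 loci had a median length of 221.5 bases. The highest, on scaffold 36 at 19486285 to 19487081, had 958, 5.68 and 4.64 CPM in rhino 2, against 18.8, 2.97 and 0.690 CPM in rhino 1. In an intron of CARD8 on scaffold 33, at 13622290 to 13622503, the levels were 255, 1.42 and 0.927 CPM in rhino 2, against 4.14, 1.49 and 0 CPM in rhino 1. Rhino 2 replicate 1 was also the only library deposited per gene rather than per transcript, and the part of that in these values was not tested.

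The loci also formed groups. Joining loci at most 10 kb apart gave 1019 groups, of which 77 held more than 1 locus and together 178 loci. The largest held 7 loci on scaffold Y_7 at 486033 to 516845, over 30813 bases. In 17 of the 77 groups, loci read in rhino 1 replicate 1 stood beside loci read in the other 5. One of 4 loci lay on scaffold 29 at 31273070 to 31277629, and held the plus-strand locus at 1673 CPM in rhino 1 replicate 1 and the minus-strand locus described above. Another locus of that group, at 31273070 to 31273349 on the minus strand, had 135, 128 and 140 CPM in rhino 2, against 1.13, 143 and 149 CPM in rhino 1. Without rhino 1 replicate 1, its 5 values lay between 128 and 149 CPM.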

How the data were processed

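RNA was extracted with the PicoPure kit, and the NEBNext Ultra II RNA kit served for library construction, per the labels' protocols. Trimmomatic, HISAT2 and StringTie appear in the submitters' processing notes. The strand setting and genome build were not given in the sources used here. The authors deposited raw read counts, per transcript for 5 libraries and per gene for rhino 2 replicate 1, with a table of transcript positions whose coordinates are used here.

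Transcript counts were summed to genes. For the fit, 14075 unnamed genes that covered at least 50% of the shorter exonic length opposite a named gene were joined to it, which left 25951 loci. CPM values were computed with the library total. Fits used edgeR 4.0.16 in R 4.3.3 (TMM, filterByExpr, quasi-likelihood test, two-sided) with Benjamini-Hochberg adjustment over all loci tested, with limma 3.58.1 and DESeq2 1.42.0 as alternatives. The edgeR fit was tested on simulated data: over all 6 libraries it recovered 100 of 100 loci changed 8-fold and 99 of 100 changed 4-fold, with 13 false calls. Without rhino 1 replicate 1 it recovered 100 of 100 changed 8-fold and 89 of 100 changed 4-fold, with 1 false call. The simulated counts had the same dispersion (spread between libraries) at every locus and no exchange of strands. The changed loci were drawn only from those above a floor of expected counts. The numbers recovered thus do not give the power at the single-exon loci.

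Loci named by rule were the 12 with the highest mean, those past the threshold, and, of those detected in both animals, the 3 nearest to and farthest from a named gene, the 3 highest in introns and the 3 longest. The rules and the loci were chosen with earlier results of these data known, and loci outside the rule were named after their values were seen. One locus near the threshold is not reported here.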

Additional observations from a re-analysis of the deposited data

How the results depend on the processing

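Single-exon loci called between the animals numbered 0 in the fit of all 6 libraries, where 0.551% of all loci were called. The number was 19 with no filter on low counts (2.27% of all loci), 4 with DESeq2 (7.27%) and 115 with limma-voom (9.02%). With a library left out it was 0 to 1 (1 without rhino 1 replicate 1), against at most 0.571% of all loci. In the 5 libraries the count was 1 (0.571% of all loci), against 18 with DESeq2 (10.8%) and 7 with limma-voom (4.25%). With a rhino 2 library left out of the 5 it was 0, and no locus of any kind was called. The labels do not say whether the same replicate numbers in both animals pair the libraries. Correlations of deviations were 0.207, 0.125 and 0.00544 for libraries of the same number, and -0.173 to 0.00667 for the others. With a replicate block 0 of 222 single-exon loci and 0 of all 8532 loci were called. The block also leaves fewer degrees of freedom, so this does not settle the pairing.

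Loci detected in rhino 2 numbered 364, against 215 at 5 CPM, 588 with at least 1 of 3 libraries, 110 at least 5000 bases from a named gene, and 364 to 430 with a library left out. In rhino 1 they numbered 21, against 96 at 0.1 CPM, 4 at 5 CPM, 374 with at least 2 libraries, 986 with at least 1, 9 at least 5000 bases away, and 21 to 345 with a library left out. In both animals they numbered 16, against 82 at 0.1 CPM, 2 at 5 CPM, 325 with at least 2 libraries, 528 with at least 1, 8 at least 5000 bases away, and 16 to 276 with a library left out. The difference in share of counts was 0.127 to 0.592 percentage points with a library left out, always higher in rhino 2. It was 0.277 without rhino 1 replicate 1, whose share covers mainly other loci.

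Of the 143 alternatives for single loci, 127 kept direction and side of the threshold, 8 passed it and 8 changed sign. The log2 fold change of the scaffold 28 locus at 40161154 was 0.06, against -0.36 on genes as deposited and -0.51 to 0.99 with a library left out (-0.51 without rhino 1 replicate 1). For the scaffold 29 locus at 31276560 it was -0.30, against 5.24 with limma-voom, 0.90 with the replicate block and -0.88 to 0.87 with a library left out (0.87 without rhino 1 replicate 2). For the scaffold 10 locus at 26609694 it was 0.50, against -0.26 on genes as deposited and -0.10 to 1.01 with a library left out (-0.10 without rhino 1 replicate 1). For the intron locus of PO210 it was 3.25, against -0.057 on genes as deposited. On genes as deposited the counts of these loci were the same, and only the other models behind the library scaling and spread estimates differed. Which step moved the values was not tested. Depth limits the low loci: 3 counts are worth up to 4.46 CPM.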
